A study of Mus musculus with 15 samples.

Results

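The 38 genes described here carry glucose into the cell and break it down: glucose transporters, the enzymes of glycolysis, the lactate enzymes and monocarboxylate transporters, the pyruvate dehydrogenase complex with its kinases, and the pentose phosphate pathway. They were found by gene symbol, from a list drawn up with earlier results of these data known, and each gene was read from 1 probe set, the one with the highest mean over all arrays. Of the 38, 33 had a probe set that carried their symbol alone, and 31 lay above the filter on dim signals and were tested among 13083 genes in all. Pgam2, the muscle form of phosphoglycerate mutase, and Pdk4, a pyruvate dehydrogenase kinase, lay below that filter: on single arrays Pgam2 read 7.0 to 19.7 and Pdk4 1.9 to 27.3, and the filter left out probe sets under a mean signal of about 30.5. Gapdh was read only by control probe sets and was not tested. Gpi1, Pfkfb1, Eno1 and G6pdx are not analysed here, because the platform table named no probe set with their symbol alone.

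Glycolysis turns glucose into pyruvate in the cytosol. Transporters of the GLUT family let glucose in, hexokinases trap it by phosphorylation, phosphofructokinase commits it to breakdown, and the enzymes from aldolase to pyruvate kinase yield ATP. Lactate dehydrogenase turns pyruvate into lactate, which leaves through monocarboxylate transporters, while the pyruvate dehydrogenase complex sends it to the mitochondria unless its kinases switch it off. The pentose phosphate pathway branches off after hexokinase and supplies NADPH and ribose. Self-renewal of spermatogonial stem cells in culture has been linked to glycolysis in the field.

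RNA came from germ cell cultures enriched for spermatogonial stem cells, set up from C57BL/6 male mice 6 days old and grown in defined medium without serum. All 5 groups were cultures of this kind, and 15 samples, 3 per group, were each measured on 1 array. Maintained cultures always had GDNF (glial cell line-derived neurotrophic factor), its soluble co-receptor GFRalpha1 and bFGF. Withdrawal cultures spent 18 h without GDNF and GFRalpha1, and in the replacement cultures both were then given back for 2, 4 or 8 h. No group was kept without the factors for longer than 18 h or handled alike without getting them back, so the factors' return, the handling and the added hours cannot be told apart. Whether the replicates came from separate cultures is not stated, and p-values then measure only the spread between these arrays, which may be technical. Values are MAS5 signal, an intensity in arbitrary units, which can be compared between arrays for 1 probe set but not between genes. In such bulk RNA, fewer cells of a type and less RNA per cell cannot be told apart.

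The array of withdrawal replicate 3 stood apart. Its ratio of 3′ to 5′ control signal, which climbs as RNA breaks down or is copied incompletely, was 2.77 for beta-actin against 1.1 to 1.75 on the other 14 arrays, and 1.77 for Gapdh against 0.713 to 1.05. The 1.75 and the 1.05 were both on 4 h replicate 3, and 4 h replicate 2 had a beta-actin ratio of 1.52. Of the 31 members, 8 (25.8%) read more than 0.5 higher on the log2 scale on withdrawal replicate 3 than on the mean of the other 2 withdrawal arrays. Over all genes tested this share was 13.9%. Pdk3 alone (3.23% of members, against 14.8% of all genes) read more than 0.5 lower. The part of RNA quality in the members' values was not tested, and the difference of every tested member on withdrawal is plotted with and without this array. Other stated calls that use the withdrawal group are given without it where they changed. Cell type markers and further probe sets of a member are given with all arrays only. Of the markers of the labelled cell type, germ cell and stem spermatogonia genes, 17 of 19 were on the array by their own symbol, and all 17 lay above the filter.

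After 18 h without GDNF and GFRalpha1, transcripts of Hk2 (hexokinase 2), Slc2a3 (the glucose transporter GLUT3) and Aldoc (aldolase C) fell, while Hk1 (hexokinase 1) rose. These 4 of the 31 members passed the test (limma, adjusted p under 0.05), 3 lower and 1 higher. Over all genes tested, 8.04% were called in this comparison, 4.21% higher and 3.83% lower. At an unadjusted p under 0.05, 12 members were lower and 4 higher. The share of all genes at this unadjusted threshold is not given here. Such counts, here and below, therefore have no baseline and cannot be read as particular to the members. The groups of arrays did not overlap for 12 of the 31 members, and for 26.8% of all genes. The median member difference was -0.08 on the log2 scale, beside 0.06 over all genes. Without withdrawal replicate 1 the members' median was 0.003. Without withdrawal replicate 3 it was -0.17, beside 0.06 over all genes in that fit.

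When the factors came back, Hk2 rose again and Hk1 fell again by 8 h, Slc2a1 (the glucose transporter GLUT1) was lower at 4 h, and Slc2a3 and Aldoc were still below the maintained level at 8 h. No member was called at 2 h by limma, with 3 at an unadjusted p under 0.05, beside 0.115% of all genes called. At 4 h 1 member was called, lower (Slc2a1), beside 2.64% of all genes, 1.74% higher and 0.91% lower. At 8 h 2 were called, Hk2 higher and Hk1 lower, beside 2.39% of all genes, 1.3% higher and 1.09% lower. The groups of arrays did not overlap for 6 members at 2 h, 4 at 4 h and 7 at 8 h, against 14.6%, 21.4% and 21.5% of all genes. These 3 comparisons and that of withdrawal against maintained cultures share the withdrawal arrays. Between 8 h of replacement and maintained cultures 2 members were called, both lower, beside 0.482% of all genes, 0.275% higher and 0.206% lower. There 11 members did not overlap, against 26.6% of all genes. Between 8 h and 2 h of replacement 1 was called, Hk2, higher, beside 1.85% of all genes, 1.48% higher and 0.375% lower, and 6 did not overlap, against 25.6%. A single test over all 5 groups called 3 members, Hk2, Slc2a3 and Aldoc, beside 6.68% of all genes.

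**Figure D1:**
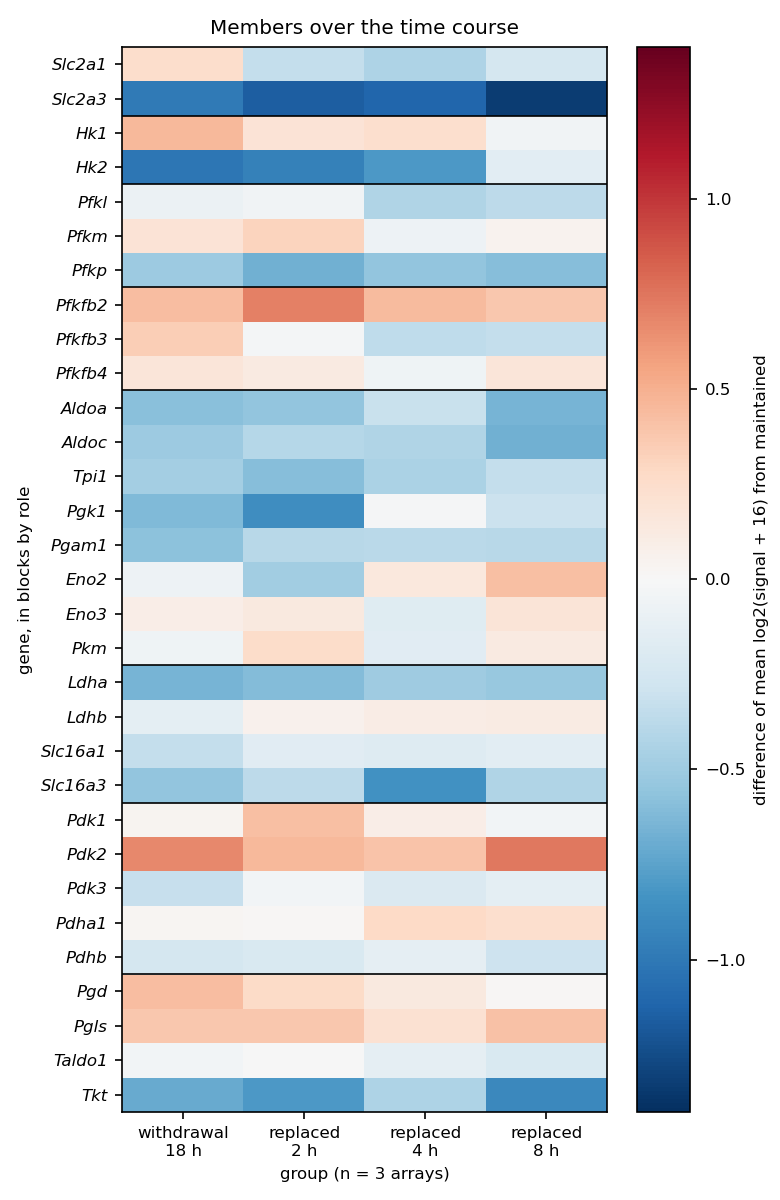
Rows are the 31 tested members in blocks by role, columns the 4 groups that had been deprived (n = 3 arrays each), and colour the difference of the mean log2(signal + 16) from the maintained group, red for higher and blue for lower. Slc2a3 is blue in every column (-0.99 after withdrawal, -1.32 at 8 h), while Hk2 goes from -1.01 after withdrawal to -0.14 at 8 h.

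Of the glucose transporters, Slc2a3 showed the larger fall. It encodes GLUT3, a transporter with high affinity for glucose. Its signal was 1917, 1734 and 1991 on the maintained arrays and 794, 883 and 1171 on the withdrawal arrays. It then read 730, 796 and 1007 at 2 h of replacement, 789, 935 and 859 at 4 h, and 644, 922 and 683 at 8 h. Every maintained array lay above every array of the other 4 groups. The fall on withdrawal was 1.99-fold (log2 difference -0.99, SE 0.17, adjusted p = 0.00166), and without withdrawal replicate 3 it was 2.22-fold. At 8 h Slc2a3 remained 2.50-fold below maintained cultures (log2 difference -1.32, 95% interval -1.68 to -0.97, adjusted p = 0.00142). The change from withdrawal to 8 h did not pass the test, at -0.33 (95% interval -0.69 to 0.02). A second of the 4 Slc2a3 probe sets was also called, at -0.98 on withdrawal and -1.37 at 8 h against maintained cultures. This second set is of the kind (x_at) that can also bind related transcripts. The other 2, which were dim, gave -1.41 and -0.86 on withdrawal and were not called. On withdrawal replicate 3 these dim sets read 2.9 and 12.6. On replicates 1 and 2 the first read 71.1 and 108, and the other 71.8 and 135. These values overlapped the maintained ranges of 88.3 to 248 and 64.4 to 212.

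Slc2a1 encodes GLUT1, the transporter for basal glucose uptake in many cells. It read 796, 965 and 702 in maintained cultures, 888, 932 and 1088 after withdrawal, 583, 692 and 662 at 2 h, 564, 760 and 498 at 4 h, and 580, 832 and 661 at 8 h. The withdrawal arrays overlapped the maintained ones and lay above all 9 replacement arrays. At 4 h the signal was 1.60-fold below withdrawal (log2 difference -0.68, SE 0.17, adjusted p = 0.0445). The differences at 2 h (-0.57, adjusted p = 0.405) and 8 h (-0.49, adjusted p = 0.157) were not called, and at 8 h Slc2a1 was not called against maintained cultures either (-0.25, 95% interval -0.61 to 0.11). The call was lost without any 1 of the 3 withdrawal arrays (-0.74, -0.70 and -0.59 without replicates 1, 2 and 3, adjusted p = 0.0748, 0.0788 and 0.0924) and without 4 h replicate 1 or 3 (-0.64 and -0.55, adjusted p = 0.0673 and 0.152). The other 2 Slc2a1 probe sets were also lower at 4 h, by -0.71 (limma, adjusted p = 0.0329 over all probe sets) and -0.86 (adjusted p = 0.0564).

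**Figure D2:**
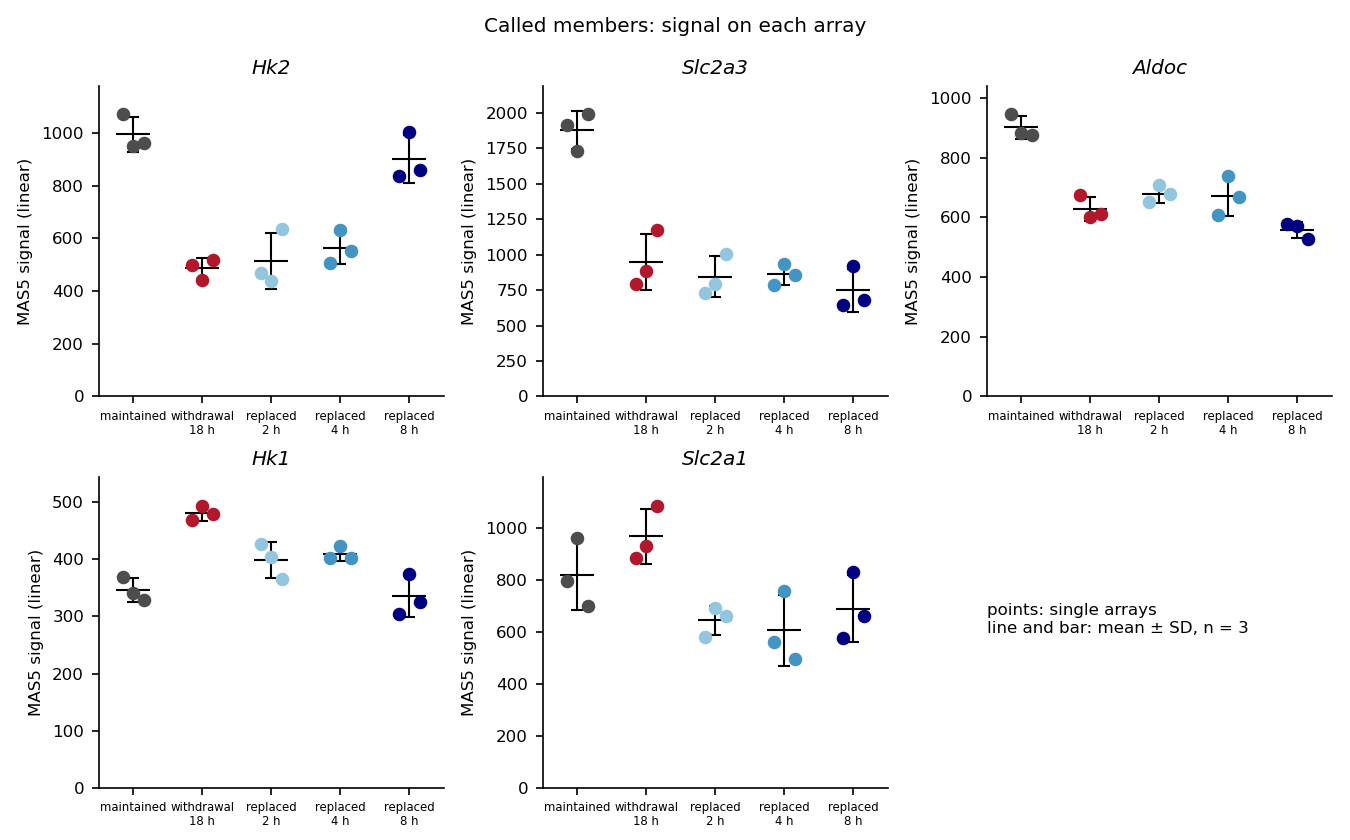
Each panel plots the MAS5 signal (linear axis from 0, arbitrary units) of 1 member on each of the 15 arrays by group, with the group mean and SD (n = 3) as a line and bar. Hk2 reads 443 to 517 after withdrawal and 836 to 1005 at 8 h of replacement, while no Slc2a3 array at 8 h reads above 922 against 1734 or more in maintained cultures.

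The hexokinases moved in opposite directions. Hk2, the inducible hexokinase of growing cells, read 1071, 952 and 961 in maintained cultures and 499, 443 and 517 after withdrawal. Its signal was 470, 439 and 635 at 2 h, 508, 630 and 552 at 4 h, and 836, 1005 and 861 at 8 h. The 2 h and 4 h arrays overlapped the withdrawal arrays, whereas the 8 h arrays lay above all of these and overlapped the maintained ones. Hk2 fell 2.01-fold on withdrawal (log2 difference -1.01, SE 0.14, adjusted p = 0.000469). By 8 h it was 1.82-fold above withdrawal (0.87, adjusted p = 0.00435) and 1.74-fold above 2 h (0.80, adjusted p = 0.00898). The call between 8 h and 2 h was lost without 2 h replicate 2 (0.70, adjusted p = 0.0506) and without 8 h replicate 2 (0.72, adjusted p = 0.0607). Against maintained cultures the 8 h level differed by -0.14 (95% interval -0.45 to 0.16), which was not called. Without withdrawal replicate 3 the fall was -1.05 and the rise at 8 h 0.91, both called.

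Hk1, the hexokinase that most tissues express, read 369, 341 and 329 in maintained cultures, 468, 493 and 478 after withdrawal, 426, 404 and 365 at 2 h, 402, 423 and 401 at 4 h, and 304, 375 and 325 at 8 h. All 3 withdrawal arrays lay above every other array. The rise on withdrawal was 1.37-fold (log2 difference 0.45, SE 0.12, adjusted p = 0.0236), and the fall from there to 8 h was 1.42-fold (-0.50, adjusted p = 0.029). The call on withdrawal was lost without maintained replicate 2 or 3 or withdrawal replicate 2 (0.45, 0.42 and 0.44, adjusted p = 0.0691, 0.0923 and 0.0609). That at 8 h was lost without withdrawal replicate 1 or 2 (-0.52 and -0.48, adjusted p = 0.068 and 0.0846) and without 8 h replicate 1 or 3 (-0.44 and -0.49, adjusted p = 0.133 and 0.112). At 2 h and 4 h the differences from withdrawal, -0.26 and -0.22, were not called. A second, dimmer Hk1 probe set gave 0.13 on withdrawal and -0.30 at 8 h and was called in neither, so the Hk1 changes rest on 1 probe set.

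The 250 bases upstream of the start sites of both hexokinases and of Aldoc are printed because these genes were called and moved in different directions. Sequences and positions are from RefSeq on GRCm38.p6, 5′ to 3′ on the gene's strand. Capitals mark every match, on either strand, to 6 motifs: the E-box CACGTG that MYC and related factors bind, the cores ACGTG and GCGTG of hypoxia-response elements, the ETS core CCGGAA, the GC box GGGCGG and TGACGT of the cAMP-response element.
Hk2 promoter, chr6:82774455-82774704, minus strand: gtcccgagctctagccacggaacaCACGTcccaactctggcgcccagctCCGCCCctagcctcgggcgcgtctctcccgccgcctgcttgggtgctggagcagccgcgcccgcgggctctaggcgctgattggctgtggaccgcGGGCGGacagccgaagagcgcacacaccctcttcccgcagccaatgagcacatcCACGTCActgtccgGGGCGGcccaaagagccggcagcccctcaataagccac
Hk1 promoter, chr10:62340422-62340671, minus strand: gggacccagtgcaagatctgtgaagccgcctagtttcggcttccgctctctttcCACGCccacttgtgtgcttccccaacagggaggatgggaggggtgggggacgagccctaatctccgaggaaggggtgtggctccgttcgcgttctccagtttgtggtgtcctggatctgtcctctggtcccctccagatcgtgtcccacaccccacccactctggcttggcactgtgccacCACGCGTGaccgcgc
Hk1 promoter, chr10:62379909-62380158, minus strand: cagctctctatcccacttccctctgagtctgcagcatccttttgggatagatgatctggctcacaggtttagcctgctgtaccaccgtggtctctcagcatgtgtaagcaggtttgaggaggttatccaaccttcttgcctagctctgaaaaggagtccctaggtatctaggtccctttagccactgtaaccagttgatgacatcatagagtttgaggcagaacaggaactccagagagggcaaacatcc
Aldoc promoter, chr11:78322823-78323072, plus strand: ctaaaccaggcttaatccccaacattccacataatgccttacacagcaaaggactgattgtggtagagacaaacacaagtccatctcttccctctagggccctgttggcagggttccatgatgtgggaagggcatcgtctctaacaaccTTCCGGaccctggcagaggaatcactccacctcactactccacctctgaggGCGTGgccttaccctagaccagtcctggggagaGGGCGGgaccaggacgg
Aldoc promoter, chr11:78323948-78324197, plus strand: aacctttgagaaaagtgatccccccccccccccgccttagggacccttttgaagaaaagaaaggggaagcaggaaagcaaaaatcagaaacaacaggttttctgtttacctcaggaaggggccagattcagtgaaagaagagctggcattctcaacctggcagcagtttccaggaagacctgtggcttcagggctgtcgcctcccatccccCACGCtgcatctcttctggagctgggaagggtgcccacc
The Hk2 window held 2 matches to ACGTG, 1 of which overlapped its match to TGACGT, and 3 GC boxes. The first Hk1 window held 3 matches to GCGTG, of which 2 overlapped on opposite strands, and the second held none of the 6 motifs. The first Aldoc window held 1 GCGTG, 1 ETS core and 1 GC box, and the second 1 GCGTG.

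Of the 38 members, 37 had a promoter entry. These genes had 57 windows, and all genes with entries 32851. Of the members' windows 56.1% held GCGTG against 28.2% of all, 33.3% held ACGTG against 16.6%, and 49.1% the GC box against 32.7%. The E-box, which contains ACGTG, was found in 10.5% against 6.02%, TGACGT in 8.8% against 6.47%, and the ETS core in 8.8% against 12.0%. The windows also differed in base composition, with a median GC content of 59.6% over the members' windows and 52.4% over all, and the part of this in the motif shares was not tested. These are letter matches in a fixed window and say nothing of binding.

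Phosphofructokinase, the committing step, has liver (Pfkl), muscle (Pfkm) and platelet (Pfkp) subunits. None of the 3 was called by limma in any of the 6 comparisons. Pfkp came nearest: it read 309 ± 31.9 (SD, n = 3) in maintained cultures, 212 ± 27.9 after withdrawal and 201 ± 39.4 at 8 h of replacement. Its differences from maintained cultures were -0.51 on withdrawal (adjusted p = 0.0656) and -0.59 at 8 h (adjusted p = 0.0975), and the groups did not overlap in either case. The first was -0.61 (adjusted p = 0.0553) without withdrawal replicate 3. These were the only differences of a subunit at an unadjusted p under 0.05. Pfkl varied widely between replicates, from 406 to 912 within the maintained group.

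The bifunctional enzymes Pfkfb2, Pfkfb3 and Pfkfb4 set the level of fructose 2,6-bisphosphate, the activator of phosphofructokinase. All 3 were dim, with group means of 54.9 to 112, and none was called by limma. Pfkfb3, the form with high kinase activity, read 96.8, 106 and 89.4 after withdrawal and 69.7, 53.2 and 41.7 at 4 h. The withdrawal arrays lay above all 9 replacement arrays and overlapped the maintained arrays. The difference from withdrawal was -0.69 at 4 h (adjusted p = 0.0744) and -0.68 at 8 h (adjusted p = 0.0904), and without withdrawal replicate 3 it was -0.74 and -0.73 (adjusted p = 0.092 and 0.114). Pfkfb2 differed by 0.43 on withdrawal (adjusted p = 0.168) without overlap. At an unadjusted p under 0.05 each of these 3 differences was counted, and no other of the 3 genes in the 6 comparisons. A second Pfkfb3 probe set differed from withdrawal by 0.01 at 2 h, -0.39 at 4 h and 0.21 at 8 h. None of these was called (limma, adjusted p = 0.994, 0.444 and 0.771 over all probe sets), and its withdrawal and replacement arrays overlapped.

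Of the 8 tested genes between aldolase and pyruvate kinase, 7 had a lower mean log2 level after withdrawal than in maintained cultures (6 after quantile normalization and 8 with the arrays shifted to 1 median), but only Aldoc was called. Aldoc encodes the aldolase best known from brain. It read 946, 884 and 875 in maintained cultures, 675, 600 and 611 after withdrawal, 650, 708 and 677 at 2 h, 606, 740 and 668 at 4 h, and 577, 571 and 528 at 8 h. The maintained arrays lay above all others, and the 8 h arrays below all others. The fall on withdrawal was 1.42-fold (log2 difference -0.51, SE 0.11, adjusted p = 0.0108; 1.41-fold and still called without withdrawal replicate 3), and at 8 h Aldoc was 1.60-fold below maintained cultures (-0.67, SE 0.11, adjusted p = 0.0108). The call at 8 h was lost without maintained replicate 3 (-0.70, adjusted p = 0.0556) and without 8 h replicate 2 or 3 (-0.69 and -0.64, adjusted p = 0.0594 and 0.0722). From withdrawal to 8 h the difference was -0.16 (95% interval -0.40 to 0.07), which was not called although the arrays did not overlap.

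Pgam1, the phosphoglycerate mutase of most tissues, lay just outside the threshold on withdrawal, at 3376 ± 332 before and 2255 ± 203 after (log2 difference -0.58, adjusted p = 0.0526). This was -0.52 (adjusted p = 0.124) without withdrawal replicate 3. Pgam1 read 2581 ± 336 at 8 h. The pyruvate kinase gene Pkm read 3528 ± 662 in maintained cultures and 3362 ± 342 after withdrawal, a difference of -0.06. Eno2, the neuronal enolase, read 51.1, 52.6 and 55.6 at 2 h and 101, 179 and 79.3 at 8 h, a difference of 0.91 (adjusted p = 0.0739) that was not called. Eno3, the muscle enolase, differed by 0.09 on withdrawal.

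Pgk1, Tpi1 and Aldoa, 3 widely expressed enzymes of the same stretch, were not called on withdrawal with all arrays and were called lower without withdrawal replicate 3. Pgk1, phosphoglycerate kinase and the first ATP-yielding step, read 4896, 6628 and 5990 in maintained cultures and 2590, 2983 and 6941 after withdrawal. It read 3143, 2866 and 3503 at 2 h, 4760, 6742 and 5894 at 4 h, and 4484, 5423 and 4296 at 8 h. Only withdrawal replicate 3 reached the maintained range among the withdrawal and 2 h arrays. With all arrays the differences were -0.62 on withdrawal (adjusted p = 0.167), 0.60 at 4 h (adjusted p = 0.222) and 0.32 at 8 h (adjusted p = 0.623). Without withdrawal replicate 3 Pgk1 was 2.08-fold lower on withdrawal (adjusted p = 0.00191), 2.06-fold higher at 4 h (adjusted p = 0.0053) and 1.69-fold higher at 8 h (adjusted p = 0.0263). At 4 h it read 4760 on replicate 1, where the beta-actin ratio was 1.12. It read 6742 and 5894 on replicates 2 and 3, where that ratio was 1.52 and 1.75. The part of RNA quality in the difference at 4 h was not tested. A second Pgk1 probe set, not of the x_at kind, read 2820, 2456 and 2370 in maintained cultures and 1189, 1285 and 1980 after withdrawal. It was called lower with all arrays (limma, -0.81, adjusted p = 0.022 over all probe sets). At 4 h this set read 2405, 2260 and 1815 on replicates 1, 2 and 3, lower where the beta-actin ratio was higher. Its differences from withdrawal, 0.56 at 4 h and 0.61 at 8 h, were not called (adjusted p = 0.143 and 0.136). A dimmer x_at set read 274, 324 and 356 on the 4 h arrays, higher where that ratio was higher.

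Tpi1, triosephosphate isomerase, read 1592, 1588 and 1301 in maintained cultures and 842, 888 and 1604 after withdrawal. Aldoa, the aldolase of most tissues, read 3788, 5099 and 3358, and then 2132, 2310 and 3916. In both, withdrawal replicate 3 lay within or above the maintained range and the other 2 arrays below it. The differences were -0.48 and -0.58 with all arrays (adjusted p = 0.154 and 0.153), and -0.77 and -0.85 without replicate 3 (adjusted p = 0.00681 and 0.0379). Other Aldoa probe sets gave -0.78, -0.63, -0.17 and -0.09 on withdrawal with all arrays. None of them was called (limma, adjusted p = 0.106, 0.148, 0.479 and 0.870 over all probe sets). The probe sets that stand for Pgk1, Aldoa, Tkt and Pgd are of a kind (x_at) that can also bind related transcripts, so the levels of these 4 are uncertain. So is that of Tpi1, which like Pgk1 and Aldoa has processed pseudogenes.

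**Figure D3:**
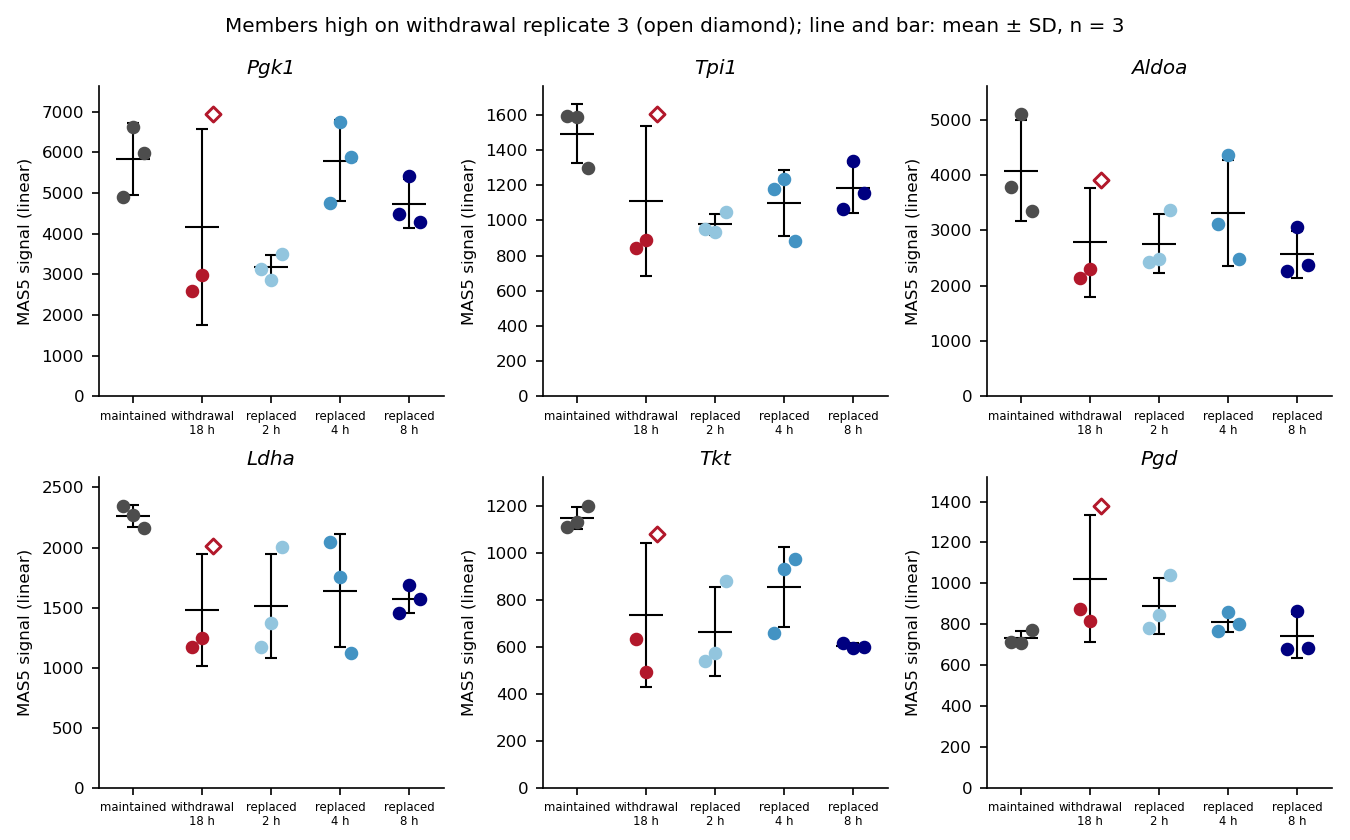
Each panel plots the MAS5 signal (linear axis from 0, arbitrary units) of 1 member on each array by group, with the mean and SD (n = 3). Withdrawal replicate 3, drawn as an open diamond, reads 6941 for Pgk1 where the other 2 withdrawal arrays read 2590 and 2983.

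For Gapdh, the 3′ control probe set read 6605 ± 497 in maintained cultures, 5876 ± 1237 after withdrawal, and 6173 ± 304, 6682 ± 726 and 6273 ± 401 at 2, 4 and 8 h. On withdrawal replicate 3 the 3′ set was the brightest of all 15 arrays at 7259 and the 5′ set the dimmest at 4094. On the other 2 withdrawal arrays the 3′ set read 4874 and 5496, below every other array.

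The lactate genes, Ldha and Ldhb for lactate dehydrogenase and Slc16a1 and Slc16a3 for the transporters MCT1 and MCT4, all had lower mean log2 levels after withdrawal, by 0.14 to 0.65. None passed the limma test in any comparison, with 3 of 4 at an unadjusted p under 0.05 on withdrawal, 1 at 8 h against withdrawal, 1 at 8 h against maintained cultures and 0 in the other 3 comparisons. Ldha, the form that favours lactate production, read 2348, 2272 and 2166 in maintained cultures, 1172, 1247 and 2016 after withdrawal, and 1452, 1685 and 1570 at 8 h. The maintained arrays lay above all withdrawal and 8 h arrays. Its difference on withdrawal was -0.65 (adjusted p = 0.0919) with all arrays and -0.89 (adjusted p = 0.0266) without replicate 3. At 8 h it was -0.53 against maintained cultures (adjusted p = 0.258). Slc16a3, which exports lactate from glycolytic cells, differed by -0.55 on withdrawal (adjusted p = 0.143), and Slc16a1 by -0.34 (adjusted p = 0.119). Without replicate 3 these were -0.76 (adjusted p = 0.0598) and -0.29 (adjusted p = 0.222).

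Of the pyruvate dehydrogenase genes, neither the subunits Pdha1 and Pdhb nor the kinases Pdk1, Pdk2 and Pdk3 were called by limma in any comparison. At an unadjusted p under 0.05 there was 1 difference in each of 3 comparisons (2 h against withdrawal, and 8 h against maintained cultures and against 2 h) and 0 in the others. Pdk1, a kinase that shuts the complex down, read 1354, 1409 and 1295 after withdrawal, 1814, 1645 and 1855 at 2 h and 1254, 1388 and 1197 at 8 h. The 2 h arrays lay above all other 12 arrays. Its difference was 0.38 from withdrawal to 2 h (adjusted p = 0.43) and -0.47 from 2 h to 8 h (adjusted p = 0.0556). The first was 0.35 (adjusted p = 0.529) without withdrawal replicate 3. Pdha1 differed by 0.02 on withdrawal. Pdk2 was dim and uneven, reading 4.0 to 65.1 in maintained cultures.

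In the pentose phosphate pathway the tested genes did not move alike, and none was called with all arrays by limma, with 3 of 4 at an unadjusted p under 0.05 on withdrawal, 1 at 8 h against withdrawal, 2 at 8 h against maintained cultures and 0 in the other 3 comparisons. Tkt, the transketolase of the branch that returns sugars to glycolysis, read 1111, 1130 and 1200 in maintained cultures, 632, 495 and 1079 after withdrawal, 540, 573 and 882 at 2 h, 660, 929 and 973 at 4 h, and 618, 597 and 601 at 8 h. The maintained arrays lay above all others. The difference was -0.71 on withdrawal (adjusted p = 0.0693) and -0.90 at 8 h against maintained cultures (adjusted p = 0.0777). Without withdrawal replicate 3 Tkt was called lower on withdrawal (-1.01, adjusted p = 0.00568), and a second probe set was called with all arrays (limma, -0.59, adjusted p = 0.0324 over all probe sets). Pgls and Pgd, of the branch that makes NADPH, were on the other side: Pgls by 0.37 (adjusted p = 0.0792) and Pgd by 0.44 (adjusted p = 0.132), without overlap between the groups. Both were smaller without withdrawal replicate 3, at 0.25 (adjusted p = 0.223) and 0.20 (adjusted p = 0.418). Pgd read 1380 on that array against 874 and 817 on the other 2. A Pgd probe set that is not of the x_at kind read 877 there against 826 and 784, and gave 0.22 on withdrawal (limma, adjusted p = 0.486 over all probe sets). The transaldolase gene Taldo1 differed by -0.03.

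Without withdrawal replicate 3, 9 members were called on withdrawal, 8 lower and 1 higher, beside 5.04% of all genes, 2.71% lower and 2.32% higher. They were the 4 named before together with Aldoa, Tpi1, Pgk1, Ldha and Tkt, and these 5 were among the 8 that read over 0.5 higher on that array. At 4 h of replacement 1 member was called, Pgk1, higher, beside 2.76% of all genes, 2.19% higher and 0.573% lower. At 8 h 3 were called, Hk2 and Pgk1 higher and Hk1 lower, beside 2.7% of all genes, 1.74% higher and 0.963% lower. Over all 5 groups 7 members were called, beside 8.9% of all genes. At 2 h limma called none, with 4 at an unadjusted p under 0.05, beside 0.0764% of all genes.

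**Figure D4:**
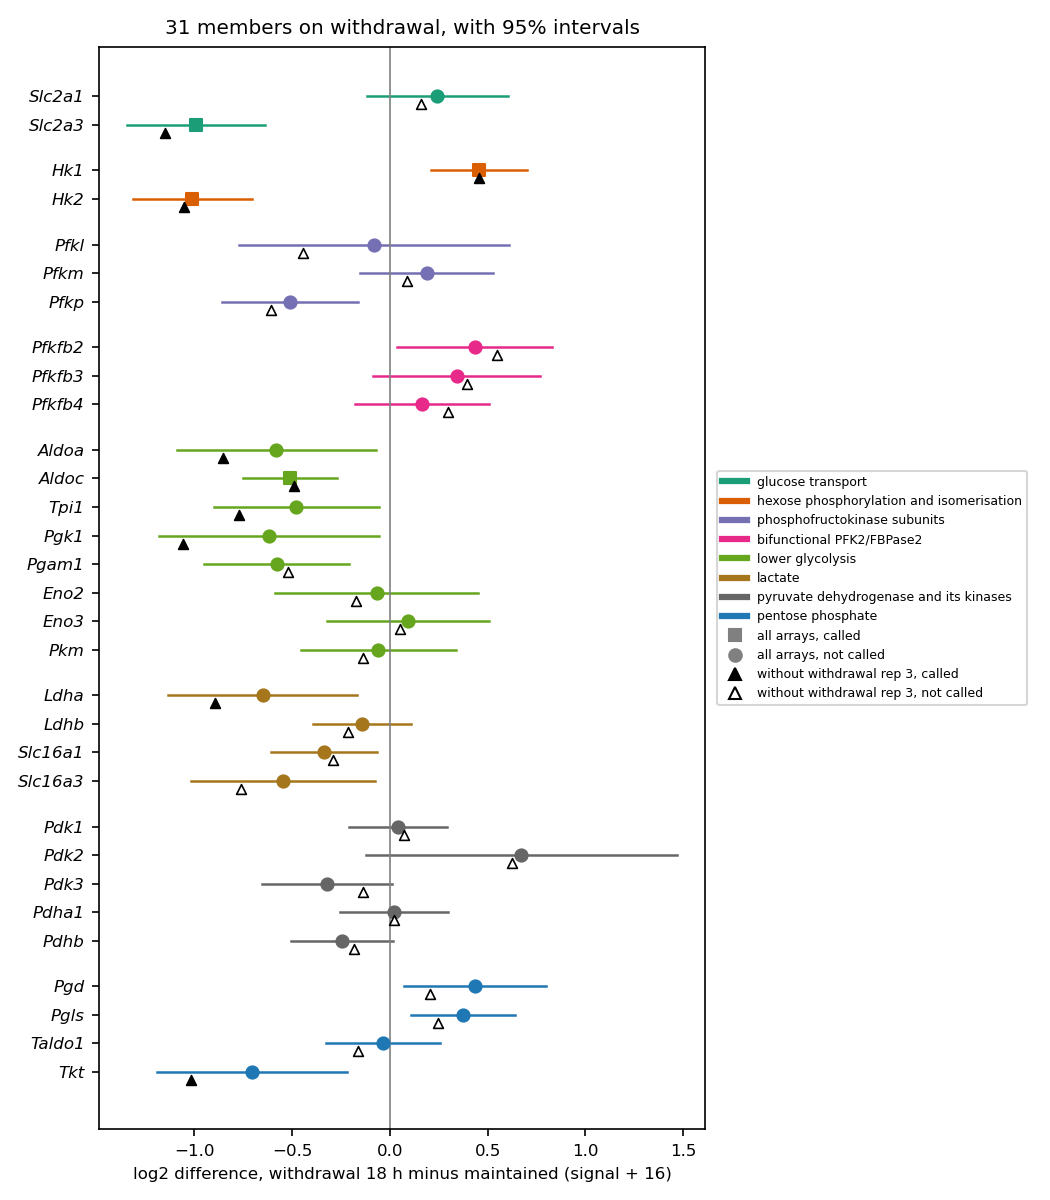
Circles and squares give the log2 difference of each tested member, withdrawal minus maintained, with its 95% interval (all 15 arrays, squares for called members, colours for roles); triangles give the same without withdrawal replicate 3, filled where called. With all arrays 4 members are called and without that array 9, with Pgk1 going from -0.62 to -1.06.

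Of 56 further carbohydrate genes tested (other transporters, gluconeogenesis, glycogen, hexosamine and serine synthesis), 2 were called on withdrawal, both lower, beside 8.04% of all genes (3.83% lower): Gpd1l, a glycerol 3-phosphate dehydrogenase-like enzyme (1.67-fold, adjusted p = 0.00704), and Psat1, of serine synthesis (1.54-fold, adjusted p = 0.00378). Pygl, liver glycogen phosphorylase, was 1.52-fold lower at 8 h than in maintained cultures (adjusted p = 0.0487). None was called by limma in the other 4 comparisons, with 5 to 9 at an unadjusted p under 0.05. With withdrawal replicate 3 left out, Gpd1l and Psat1 were still called on withdrawal, beside 5.04% of all genes. At 8 h 2 genes were called lower than after withdrawal, beside 2.7% of all genes (0.963% lower). They were Pgm2l1 and Pygl (1.59-fold and 1.42-fold), named after their values were seen.

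Among 29 tested regulators of glucose use, 6 were called on withdrawal, 4 higher and 2 lower, beside 8.04% of all genes (4.21% higher and 3.83% lower). Their median was 0.31, beside 0.06 over all genes. Txnip, an arrestin-like protein that limits glucose uptake through GLUT1, read 801, 702 and 774 in maintained cultures, 1263, 1618 and 1443 after withdrawal, and 810, 914 and 706 at 8 h. The withdrawal arrays lay above all maintained and 8 h arrays. Txnip rose 1.87-fold on withdrawal (adjusted p = 0.000701) and was 1.56-fold lower than that at 4 h (adjusted p = 0.0228) and 1.76-fold lower at 8 h (adjusted p = 0.00435). Ddit4, an inhibitor of mTORC1, rose 2.37-fold (adjusted p = 0.00207) and was 3.05-fold below withdrawal at 8 h (adjusted p = 0.00104). Rheb, the activator of mTORC1, fell 1.52-fold (adjusted p = 0.0269). Myc, a transcription factor that activates many glycolytic genes, read 80.9 ± 19.3 before and 15.4 ± 1.45 after withdrawal, the latter under the filter level, so its fold depends on the constant added (log2 difference -1.61, adjusted p = 0.000302). It was higher than withdrawal at 4 h (1.04, adjusted p = 0.0213) and 8 h (1.06, adjusted p = 0.0156). At 4 h 3 of the 29 were called and at 8 h 5, beside 2.64% and 2.39% of all genes. Without withdrawal replicate 3 the calls of Txnip and Myc in these 3 comparisons remained, as did those of Ddit4 on withdrawal (2.03-fold) and at 8 h (2.62-fold). That of Rheb was lost (1.35-fold lower, adjusted p = 0.0881). The regulators called were then 5 on withdrawal, 2 at 4 h and 5 at 8 h, beside 5.04%, 2.76% and 2.7% of all genes. Of these regulators, 4, 2 and 4 had been called with all arrays.

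Hif1a, a regulated subunit of the hypoxia-inducible factors, differed by 0.11 on withdrawal (adjusted p = 0.676) and was called in no comparison. Epas1, for another such subunit (HIF-2alpha) and also in the list of regulators, was named after its values were seen. Limma called it higher on withdrawal (0.47, adjusted p = 0.0324). At 8 h it was called lower than after withdrawal (-0.60, adjusted p = 0.0195). Both calls remained without withdrawal replicate 3 (adjusted p = 0.0447 and 0.0205). Of 16 tested hypoxia-response genes, 5 were called on withdrawal, 2 higher and 3 lower, beside 8.04% of all genes (4.21% higher and 3.83% lower). Those higher were Ddit4 and Egln1, both also in the list of regulators. Ankrd37 (2.28-fold) and Adm, for adrenomedullin (2.07-fold), were lower. At 8 h these were higher than after withdrawal (1.73-fold and 1.85-fold), and Ddit4 and Egln1 were lower. Against 2 h of replacement, Adm was 2.97-fold and Ankrd37 2.48-fold higher at 8 h. Without withdrawal replicate 3 the calls of Ankrd37 and Adm on withdrawal (2.30-fold and 1.97-fold) and at 8 h against withdrawal remained. Those of Egln1 were lost (0.41 on withdrawal, adjusted p = 0.136, and -0.53 at 8 h, adjusted p = 0.0839). Of the 16 genes 4 were then called on withdrawal, 1 higher and 3 lower, beside 5.04% of all genes (2.32% higher and 2.71% lower). At 8 h against withdrawal 3 were called, beside 2.7% of all genes.

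Markers of other cells moved with the replacement times. The fibroblast markers, 18 of 19 on the array and 16 above the filter, summed to 6540 to 8938 in maintained cultures, 7127 to 10930 after withdrawal, 4890 to 8056 at 2 h, 12278 to 14781 at 4 h and 11784 to 15075 at 8 h. Lum and Fap were below the filter. All 14 endothelial and blood markers were on the array and 9 were above the filter. They summed to 1659 to 1954, 1953 to 2327, 2114 to 3167, 3396 to 3616 and 3075 to 4542 in the same order of groups, with Pecam1, Tek, Tie1, Ptprc and Hba-a1 below the filter. Of these 14, the 3 that were called in any comparison were the mast cell protease genes Cpa3, Cma1 and Mcpt4. They summed to 1057 to 1314 in maintained cultures, 1321 to 1855 after withdrawal, 1624 to 2660 at 2 h, 2864 to 3057 at 4 h and 2396 to 3982 at 8 h. The other 11 summed to 514 to 693 in maintained cultures and 560 to 750 at 8 h. The 17 germ cell and stem spermatogonia markers summed to 23328 to 24673 in maintained cultures and 17451 to 20497 after withdrawal, and to 20495 to 22976 in the 9 replacement cultures. Withdrawal replicate 3 gave the 17451, with 19952 and 20497 on replicates 1 and 2. It also gave the fibroblast sum of 10930, with 7465 and 7127 on replicates 1 and 2. Such sums weigh bright probe sets most. On withdrawal limma called 9 of the 17, 8 lower and 1 higher, beside 8.04% of all genes (3.83% lower and 4.21% higher). Those with the largest differences were Bcl6b (mean signal 629.7 to 92.9), Lhx1 (484 to 114), Id4 (1301 to 361.5) and Etv5 (1108 to 354). These counts and means include withdrawal replicate 3. The part of changes in such single genes in the lower sum was not tested. Of 12 Sertoli cell markers 11 were on the array and 9 above the filter. They summed to 560 to 636 in maintained cultures, 696 to 773 after withdrawal, 496 to 654 at 2 h, 626 to 677 at 4 h and 726 to 804 at 8 h. Of 10 Leydig and peritubular markers 8 were on the array and 4 above the filter. They summed to 515 to 585, 553 to 580, 414 to 616, 610 to 778 and 686 to 839 in the same order of groups. For both lists the 8 h arrays lay above all maintained arrays. Of the 4 Leydig and peritubular genes tested, 1 was called at 8 h against maintained cultures, beside 0.482% of all genes. This was Cyp11a1, a steroid-making enzyme of Leydig cells, with a mean signal of 164 against 54.8 (2.65-fold higher, limma, adjusted p = 0.0342). Meiotic and haploid markers summed to 1594 to 2342 over all arrays. The part of these shifts in the values of Hk2, Hk1, Slc2a1, Slc2a3 and Aldoc was not tested.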

How the data were processed

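MAS5 signal of 45101 probe sets on 15 arrays was used as deposited, an intensity on a linear scale. The authors computed it with MAS5, per the submitters' processing notes (version, chip and scaling target: not given in the sources used here). Each array had a trimmed mean signal of 150 (2% cut at each end). The members, gene lists and rules were chosen with earlier results of these data known. Probe sets were named from the platform annotation (34958 with 1 symbol, 932 with several, 9211 with none), and 64 control probe sets were not tested. Signals were transformed as log2(signal + 16), so a fold is on that scale and understates changes of dim genes. The dimmest 40% of probe sets were left out, which kept 27022. Of a gene's probe sets the one with the highest mean stood for it. Means of 5 groups were fitted with limma 3.58.1 in R 4.3.3 (lmFit, eBayes with a variance trend, 10 residual degrees of freedom). Tests were two-sided, with Benjamini-Hochberg adjustment over 13083 genes, and called at an adjusted p under 0.05. Values on every array are given for called members and, beyond the rule, for members just outside the threshold, which were chosen after their values were seen. Of each other list, up to 4 called genes per comparison could be named, with Txnip, Myc and Hif1a. Precision is limited by the 3 arrays per group: the median SE of a log2 difference was 0.19. Alternatives were other constants, filters and normalizations, a fit of only the groups compared, no variance trend, a replicate block, the mean of a gene's probe sets, and leaving out each array. The fit was tested on simulated data, and figures were drawn with matplotlib 3.10.9.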

Additional observations from a re-analysis of the deposited data

How the results depend on the processing

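No called member changed direction under any alternative run. On withdrawal Hk2 and Slc2a3 were called under all 16 alternatives that apply to that comparison, Aldoc under 15 and Hk1 under 10. At 8 h against withdrawal Hk2 was called under 16 and Hk1 under 10, and Slc2a1 at 4 h under 7. At 8 h against maintained cultures Slc2a3 was called under 15 and Aldoc under 13, and Hk2 against 2 h under 13. The cause of these losses was not tested. Medians over members and over all genes were added to the alternatives after the data were seen.

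Without a filter, 0 members and 182 genes were called at 4 h. With the dimmest 60% left out, 2 members were called between 8 h and 2 h (1 in the reported fit, beside 1.85% of all genes there). Quantile normalization gave 6 members over all groups (3 in the reported fit, beside 6.68% of all genes there). Shifting each array to 1 median gave 0 members at 4 h and, between 8 h and 2 h, 0 members and 136 genes. It moved the median of all genes from 0.06 to -0.08 at 8 h against maintained cultures and from 0.03 to -0.09 against 2 h. Of called genes it left 29.1% higher on withdrawal (52.4% in the reported fit), 89.5% at 4 h (65.6%), 21.7% at 8 h against maintained cultures (57.1%) and 54.4% against 2 h (79.8%). Quantile normalization gave 89.5% at 2 h (100%) and 44.7% at 8 h against maintained cultures. Fitting only the groups compared gave 2 members and 313 genes on withdrawal, 5 genes at 2 h, 0 members and 13 genes at 4 h, 1 member and 121 genes at 8 h, 180 genes at 8 h against maintained cultures, and 3 members and 498 genes between 8 h and 2 h. This fit has fewer samples. Without the variance trend 9 genes were called at 2 h, and 0 members and 208 genes at 4 h. The mean of a gene's probe sets gave 1 member at 8 h against withdrawal and 1 against maintained cultures. In the reported fit these were 2 and 2, beside 2.39% and 0.482% of all genes. Where the only share of all genes shown is that of the reported fit, the share under the alternative is not given here.

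Leaving out 1 array at a time gave 3 to 9 members and 517 to 1014 genes on withdrawal, 0 members and 8 to 16 genes at 2 h, 0 to 1 member and 56 to 620 genes at 4 h, and 1 to 3 members and 100 to 353 genes at 8 h. It gave 1 to 2 members and 13 to 154 genes at 8 h against maintained cultures, 0 to 1 member and 61 to 184 genes between 8 h and 2 h, and 3 to 7 members and 521 to 1354 genes over all groups.

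With the replicate number as a block, 6 members and 1121 genes were called on withdrawal (4 and 1052 in the reported fit). Over all groups 5 members were called, against 3 in the reported fit, beside 6.68% of all genes there. For the block fit over all groups the share of all genes is not given here. The counts of 0, 1 and 2 members at 2, 4 and 8 h were those of the reported fit. Whether the numbers pair the samples was not settled, and the reported fit does not use them. Of 30 same-numbered pairs, 7 had deviations that correlated above 0.1 (r from -0.15 to 0.363). For pairs with different numbers r ran from -0.327 to 0.232. Of 15 samples, 11 correlated best with a sample of their own number. Each sample could match fewer arrays of its own number than of other numbers, and this count was not tested.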
